A study of Mus musculus with 20 samples.

Results

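How the effect of losing Spdef on colon RNA differed between adult and fetal mice was measured as the stage difference, the log2 ratio of knockout (KO) to wild type in adult colon minus the same ratio in fetal pools with a colon profile. The comparison used 10 of the 20 arrays of the series, which are 5 of its 10 pairs of pools. Adult colon gave 3 pairs of pools (labelled adult colon 1 to 3, 6 arrays), and the fetal side gave 2 (labelled fetal small intestine 3 and fetal colon 2, 4 arrays). The fetal pools were chosen by the measured levels of genes that mark position along the gut, because 2 tissue labels go against them, as shown next. Each pair set an Spdef KO pool against a wild type pool of the same stage on 2-colour Agilent mouse arrays and was hybridized a second time with the dyes exchanged. Adult mice were taken at postnatal day 30 and fetuses at E18.5, shortly before birth. Whole colons were dissected and RNA of 2 to 3 littermates was pooled, and the littermates' sex and the mouse strain are not given in the sources used here, nor is the kind of Spdef allele. No gene, drug or transgene other than the Spdef knockout is named for any group. Nothing in the labels says that pools of a group came from different litters, so p-values measure the spread between these pools.

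Spdef encodes an ETS-family transcription factor of secretory epithelial cells. In the colon its best known site is the goblet cell, which stores mucin in granules and releases it with trefoil peptides and other proteins to form the mucus layer. Paneth cells, which carry antimicrobial peptides, sit at the base of small intestinal crypts and are normally absent from mouse colon. Fetal colon just before birth already holds goblet cells, while the microbiota, the weaning diet and a full crypt architecture arrive later. The study asked how Spdef bears on the maturation of goblet and Paneth cells, and the stage difference addresses whether its loss changed colon RNA equally before birth and in the young adult.

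The position markers separated the pools plainly. Over 16 colon position markers, mostly distal Hox genes, the pools labelled fetal small intestine 3 and fetal colon 2 lay 1.01 and 0.92 log2 units above the mean of the fetal pools. Over 20 small intestine markers, such as Lct (lactase) and Apoa4, the same pools lay 1.71 and 1.73 units below it. The pool labelled fetal colon 1 lay on the other side in both lists (-0.63 and 1.20), beside the pools labelled fetal small intestine 1 and 2. Hoxb13 stood at 11.6 and 11.3 log2 intensity in the chosen fetal pools, 10.6 to 13.0 in adult colon and 7.0 in the pool labelled fetal colon 1. Lct stood at 8.9 and 9.1 in the chosen pools and 16.4 in that labelled fetal colon 1. These values chose the pools, so no test was made of them.

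**Figure D1:**
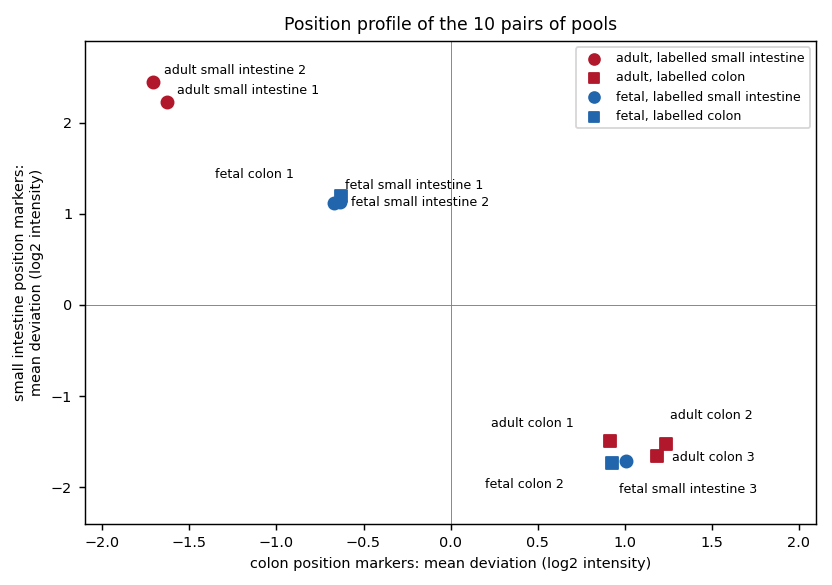
Position profile of the 10 pairs of pools. Each point is 1 pair, placed by its mean deviation in log2 intensity from the pools of the same stage over 16 colon markers (horizontal) and 20 small intestine markers (vertical); red is adult, blue fetal, circles are labelled small intestine and squares colon. The square labelled fetal colon 1 lies with the fetal small intestine pools, and the circle labelled fetal small intestine 3 lies with the colon pools.

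Some other facts of the libraries bear on every value below. The sexes of the pools were unequal: log2 KO over wild type of Xist, the X-inactivation transcript, was 4.60 in the pair labelled fetal colon 2 and -1.12 in that labelled fetal small intestine 3, where the Y-linked Eif2s3y stood at 3.52. Genes on chromosomes X and Y were therefore left out, and autosomal genes that differ by sex were not separated. Adult colon 1 held the dimmest array (39.8% of probes well above background in its wild type channel, against up to 71.6% among the 20 arrays). Digestive enzyme genes of the pancreas were bright in the wild type pools of adult colon 1 and 3 and dim in adult colon 2. The mean log2 intensity of 24 pancreas genes ran from 8.56 to 14.95 across the adult wild type pools and from 8.50 to 12.34 across the adult KO pools, whereas it was 8.03 to 8.08 in the fetal pools. The adult colon 3 and fetal colon 2 arrays share 1 slide (labelled 7701), which gives a difference within a slide, 1 pool against 1, with no test.

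The targeted transcript, Spdef, had less signal from KO than from wild type RNA on each of the 20 arrays. Its log2 ratio was -3.30, -3.80 and -3.96 in adult colon 1 to 3, and -3.42 and -2.77 in the fetal pools labelled small intestine 3 and colon 2. The stages overlapped, and the stage difference of Spdef (-0.59 ± 0.35, SE, n = 3 and 2; limma adjusted p = 0.398) did not pass the threshold of 0.05. Spdef was thus low in the KO pools of both stages.

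Across all 17092 genes tested, 174 (1.02%) passed in the stage difference, 68 (0.398%) with a ratio higher in adult than in fetal colon and 106 (0.62%) with a lower one. The split between higher and lower depended on the scaling, with 18 and 17 from the scanner software's processed signals, 75 and 73 without background subtraction, and 3 and 19 with median centring, under which the median stage difference of all genes is -0.22 (-0.01 otherwise). Adult and fetal pools did not overlap for 174 of these 174 genes, against 6409 (37.5%) of all genes tested. Passing a test on these same pools nearly requires this, so it is no added support. The difference within the slide labelled 7701 had the same sign for 174 of 174, against 12975 of 17092 overall; both pools of that slide also entered the test. The effect of KO on its own was called for 643 genes (3.76%) as higher and 989 (5.79%) as lower in adult colon. Under median centring these adult counts were 38 and 206. In the fetal pools 4 genes (0.0234%) were called as higher and 32 (0.187%) as lower. The fetal split rests on 1 pool: without that labelled fetal small intestine 3 it was 18 higher and 10 lower, and without its slide 19 and 10. Fetal colon had 2 pairs of pools and adult colon 3, so these counts are not a measure of which stage responded more.

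Most genes past the threshold changed in adult colon: 161 of the 174 were also called there, 11 in the fetal pools and 9 in both. In 141 of them the adult and fetal ratios had opposite signs, in 27 the sign was shared and the size larger in adult colon, and in 6 the sign was shared and the size larger in the fetal pools. The last 6 are Muc2, Agr2, Galnt12, Galnt3 and Muc20, which encode mucins or proteins that fold or glycosylate them, and the hormone gene Pyy. The median size of the stage difference was 0.56 log2 units among the 174 and 0.11 among all genes. The median size of the ratio among the 174 was 0.42 in adult and 0.15 in fetal colon, so many opposite signs rest on fetal ratios near 0. Choosing genes by the difference also favours opposite signs, and their share over all genes was not counted. Just inside the threshold stood Unc79 (-0.83, adjusted p = 0.0498) and Zfp273 (-0.37, adjusted p = 0.0498), and just outside Tcf15 (-0.35, adjusted p = 0.0515) and Hoxd13 (-1.27, adjusted p = 0.0515).

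**Figure D2:**
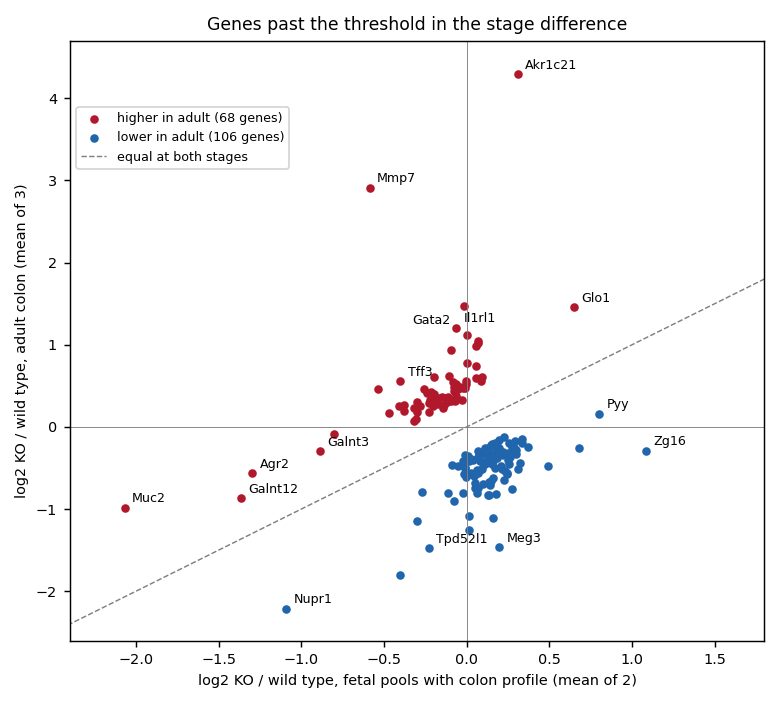
The 174 genes past the threshold in the stage difference, each placed by its mean log2 KO over wild type in fetal pools with colon profile (horizontal, 2 pairs of pools) and in adult colon (vertical, 3 pairs). Red points (68 genes) lie above the dashed line of equal effect and blue points (106 genes) below it; Akr1c21 (0.31 fetal, 4.29 adult) and Mmp7 (-0.59 fetal, 2.91 adult) stand farthest from it, and Muc2, Agr2, Galnt12 and Galnt3 lie in the lower left, lower in KO pools at both stages.

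The pools labelled fetal small intestine 3 and fetal colon 1 both go against their labels and share a slide, each with the profile of the other tissue, and whether they were exchanged was not tested. The comparison was therefore repeated in other compositions. With fetal colon 1 and 2 as labelled, 107 genes passed, of which 59 were among the 174. Without the pool labelled fetal small intestine 3, 19 passed (11 shared), without that labelled fetal colon 2, 4 passed (4 shared), and without the whole slide that holds fetal small intestine 3 and fetal colon 1, 1 passed (0 shared). Each of the last 3 leaves 1 fetal pool, whose spread is assumed to equal that of the other groups. Of the 24 symbol-bearing genes with the largest stage differences described below, 16, 9, 4 and 0 respectively passed the threshold in these 4 fits. Their sign is no measure of stability, since they were chosen for pools that do not overlap. The adult side also turned on single pools: 17 genes passed without adult colon 1, 66 without adult colon 2 and 173 without adult colon 3.

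The largest stage differences belonged to Akr1c21 and Mmp7, which were far higher in KO than in wild type adult colon and not in fetal colon. Akr1c21 encodes an aldo-keto reductase that acts on hydroxysteroids. Its log2 ratio was 3.91, 4.14 and 4.83 in adult colon 1 to 3, against 0.41 and 0.21 in the fetal pools labelled small intestine 3 and colon 2. The adult values all lay far above the fetal ones, and the stage difference was 3.98 ± 0.23. In wild type pools Akr1c21 was dim at both stages, at 7.47 log2 intensity in adult and 7.36 in fetal colon, and in KO pools it reached 11.76 in adult but 7.67 in fetal colon. The adult ratio amounts to a 19.6-fold higher signal in KO. This size depends on the processing. The scanner software's processed signals gave log2 ratios of 4.05 to 5.86 on the adult arrays and 0.76 to 1.54 on the fetal ones. Akr1c21 and the other 3 genes that mark this comparison (Mmp7, Meg3 and Ywhaz) were named because of this difference, so their values are a description with no test.

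Mmp7 encodes matrilysin, the metalloprotease that activates pro-defensins in mouse Paneth cells. Its log2 ratio was 2.84, 2.53 and 3.37 in the adult pairs, 7.53-fold higher in KO on average, and -0.81 and -0.36 in the fetal pairs. The groups lay on opposite sides of 0, with a stage difference of 3.50 ± 0.24. Wild type Mmp7 stood at 9.0 in adult and 8.25 in fetal colon, and the KO level was 11.91 in adult and 7.66 in fetal colon. With the fetal pools as labelled the stage difference was 4.15 for Akr1c21 and 3.33 for Mmp7, and on the slide labelled 7701 alone it was 4.62 and 3.72. Over 23 alternative settings it ranged from 3.71 to 4.87 for Akr1c21 and from 3.27 to 4.34 for Mmp7.

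The promoters of both genes are shown because no other genes differed as much between the stages. They run from 250 bases before to 50 after the first start site listed by RefSeq (GRCm38.p6), at chr13:4573825-4574124 (plus strand) for Akr1c21 and chr9:7691840-7692139 (plus strand) for Mmp7. The array probes lie on chromosome 13 and chromosome 9 of the older build mm8, whose coordinates are not comparable. Capitals mark GGAT, the core that Spdef favours among ETS sites, on either strand (ATCC on the strand shown).
Akr1c21: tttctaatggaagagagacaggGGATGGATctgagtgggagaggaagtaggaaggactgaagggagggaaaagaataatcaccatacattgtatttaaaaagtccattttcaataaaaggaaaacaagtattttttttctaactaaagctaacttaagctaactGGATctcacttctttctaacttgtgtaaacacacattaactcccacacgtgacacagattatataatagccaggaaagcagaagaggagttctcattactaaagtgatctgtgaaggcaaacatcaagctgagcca
Mmp7: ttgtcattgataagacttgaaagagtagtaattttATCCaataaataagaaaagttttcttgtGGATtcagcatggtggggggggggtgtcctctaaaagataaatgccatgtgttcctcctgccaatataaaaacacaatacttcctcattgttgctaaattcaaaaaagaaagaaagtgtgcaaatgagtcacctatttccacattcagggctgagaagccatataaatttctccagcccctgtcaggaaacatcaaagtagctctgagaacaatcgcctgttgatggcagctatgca
Akr1c21 holds 3 matches and Mmp7 2, and 79.7% of all 27025 promoters in the table hold at least 1. The longer CCGGAT, which contains GGAT, occurs in neither. It was found in 9 of the 118 promoters available for the 174 genes (7.63%) and in 8.99% of the 11452 available for all genes tested. A match is a string of letters and not a measured binding site.

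Of the other 24 tested genes of the Paneth list, 0 passed in the stage difference by limma (1.02% of all genes did, and 3289 of 17092 had an unadjusted p under 0.05). With Mmp7, 21 of 25 had a ratio above 0 in adult colon, and besides Mmp7 only Itln1 was called as higher there (3.76% of all genes were). In the fetal pools 20 of the 25 had a ratio below 0 and 0 passed in either direction (36 of all 17092 genes did). The median of the list was 0.73 for the stage difference, against -0.01 over all genes. Itln1, the intestinal lectin intelectin-1, was at 2.58, 2.17 and 4.76 in the adult pairs and 0.24 and -0.27 in the fetal pairs. Itln1 groups did not overlap, yet the spread of the adult pools left the stage difference at 3.18 ± 0.67 (adjusted p = 0.0686), although the adult effect alone was called (adjusted p = 0.0064).

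Ang4, an antimicrobial angiogenin of goblet and Paneth cells, varied more between pools. Its ratio was 2.33, 0.37 and 4.07 in adult colon, with the lowest value in adult colon 2, and -0.57 and 1.62 in the fetal pools. The stages overlapped, and the difference of 1.73 ± 1.15 did not pass (adjusted p = 0.451). The adult median of the Paneth list was likewise lowest in adult colon 2 (0.07, against 0.21 and 0.28). In the fetal pools it was -0.57 in the pair labelled small intestine 3 and -0.06 in that labelled colon 2. The alpha-defensins on the list share long stretches of sequence, so their probes may read one another. Defa20, with the smallest adjusted p among them, gave 0.05, 0.07 and 0.32 in adult and -1.07 and -0.32 in fetal colon (stage difference 0.84 ± 0.23, adjusted p = 0.112). Lyz1, the Paneth cell lysozyme, stood at 0.31, 0.27 and 0.25 in adult and 0.03 and 0.17 in fetal colon, a difference of 0.18 ± 0.17 that did not pass (adjusted p = 0.619).

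Goblet cell genes mostly had ratios below 0 at both stages, and those past the stage threshold went both ways. Of 41 tested goblet cell products and regulators, 33 had a ratio below 0 in adult and 35 in fetal colon. In the stage difference 5 of the 41 passed as higher in adult (Muc2, Tff3, Agr2, Capn9 and Galnt12) and 4 as lower (Zg16, Tpd52l1, Nupr1 and Best2), against 0.398% and 0.62% of all genes. In adult colon 24 of the 41 fell and 2 rose, and in the fetal pools 13 fell and 1 rose, against 5.79%, 3.76%, 0.187% and 0.0234% of all genes. The median of the list was 0.12 for the difference, -0.44 in adult and -0.40 in fetal colon.

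Muc2, the gel-forming mucin of the colon, was lower in KO at both stages and more so before birth. Its ratio was -0.81, -1.10 and -1.05 in adult and -1.95 and -2.18 in fetal colon, which is a 1.98-fold fall in adult and a 4.19-fold fall in the fetal pools. The adult pools all lay above the fetal ones, with a stage difference of 1.08 ± 0.17 (adjusted p = 0.0419). Wild type Muc2 stood at 16.76 log2 intensity in adult and 13.61 in fetal colon. This difference was seen with 1 of 4 Muc2 probes, the brightest. The other 3 were dim in fetal wild type pools (7.15 to 7.71) and gave stage differences of -0.36 to -0.24, and the mean over all probes was 0.05. With the fetal pools as labelled the brightest probe gave 0.81 (adjusted p = 0.22).

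Agr2 encodes the protein disulfide isomerase needed for mucin folding. Its ratio was -0.55, -0.50 and -0.64 in adult and -1.34 and -1.25 in fetal colon, and the 2 ranges were well apart. Agr2 was lower in KO at both stages (1.48-fold in adult, 2.46-fold in fetal), and the difference was 0.73 ± 0.068 (adjusted p = 0.00682). Its wild type level hardly differed by stage (17.18 in adult, 17.14 in fetal). Galnt12 and Galnt3, which attach the first sugar of mucin O-glycans, followed the same order. Galnt12 was at -0.84, -0.94 and -0.82 in adult and -1.37 and -1.36 in fetal colon (difference 0.50 ± 0.087, adjusted p = 0.0472). Galnt3 was at -0.23, -0.23 and -0.42 against -0.97 and -0.81 (0.60 ± 0.098, adjusted p = 0.0419), and its second probe gave 0.52. Agr2, Galnt12 and Galnt3 gave 0.57, 0.28 and 0.25 with the fetal pools as labelled (limma adjusted p from 0.101 to 0.693). With median centring the differences of Muc2, Agr2, Galnt12 and Galnt3 were 0.77, 0.41, 0.16 and 0.27, with adjusted p from 0.0973 to 0.515, so that none of the 4 passed. In the wider list of mucin glycosylation, 2 of 49 tested genes passed as higher (Galnt12 and Galnt3) and 0 as lower, against 0.398% and 0.62% of all genes, with a median difference of 0.02. In adult colon 12 of the 49 fell and in fetal colon 4, against 5.79% and 0.187% of all genes.

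The promoters of Muc2 and Agr2 are shown as those of goblet genes that were lower in KO at both stages, at chr7:141690090-141690389 (plus strand) and chr12:35992675-35992974 (plus strand) in GRCm38.p6. Capitals again mark GGAT on either strand.
Muc2: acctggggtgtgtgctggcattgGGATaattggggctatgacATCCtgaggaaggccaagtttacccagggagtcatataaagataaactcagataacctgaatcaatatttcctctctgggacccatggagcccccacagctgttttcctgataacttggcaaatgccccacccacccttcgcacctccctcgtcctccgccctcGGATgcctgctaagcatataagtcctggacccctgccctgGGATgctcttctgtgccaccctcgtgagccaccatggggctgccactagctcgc
Agr2: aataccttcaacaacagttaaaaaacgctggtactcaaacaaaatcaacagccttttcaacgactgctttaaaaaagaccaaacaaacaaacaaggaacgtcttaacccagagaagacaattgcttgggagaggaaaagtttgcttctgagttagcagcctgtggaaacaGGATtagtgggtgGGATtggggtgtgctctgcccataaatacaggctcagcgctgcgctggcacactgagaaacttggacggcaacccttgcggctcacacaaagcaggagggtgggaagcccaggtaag
Muc2 holds 4 matches and Agr2 2, and CCGGAT is in neither window. The share of promoters with GGAT was 75.4% among the 118 available for genes past the stage threshold and 76.5% among those available for all genes tested.

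Tff3, the trefoil peptide that goblet cells secrete with mucin, was higher in KO relative to wild type in adult than in fetal colon. Its ratio was 0.36, 0.74 and 0.57 in adult, where it rose (adjusted p = 0.00825), and -0.54 and -0.26 in fetal colon, where it did not pass (adjusted p = 0.227). The difference was 0.96 ± 0.13 (adjusted p = 0.0267). Tff3 was bright throughout, with wild type levels of 16.38 in adult and 16.74 in fetal colon. Its gene lies near Spdef on chromosome 17, as given below. Capn9, a digestive tract calpain, likewise rose in adult colon (0.41) and was at -0.24 in the fetal pools.

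Zg16, a lectin-like granule protein that binds bacteria in colonic mucus, went the other way. Its ratio was -0.30, -0.15 and -0.41 in adult and 1.04 and 1.12 in fetal colon, so it fell slightly in adult (adjusted p = 0.0344) and rose 2.12-fold in the fetal pools (adjusted p = 0.0015). The difference was -1.37 ± 0.10 (adjusted p = 0.00399), and the groups lay on opposite sides of 0. In wild type colon Zg16 was at 17.69 in adult and 15.43 in fetal pools, and fetal KO pools reached 16.52. Zg16 is also made by pancreatic acinar cells. Its adult wild type level was 17.6 in adult colon 2, which lacked the pancreas signal, against 17.7 and 17.8 in the other pools. The adult Zg16 ratio was nearest to 0 in adult colon 2 (-0.15). The part of pancreas RNA in the Zg16 values was not tested. In the pair labelled fetal colon 1, which has a small intestine profile, Zg16 stood at -0.11, and with the fetal pools as labelled the difference was -0.79 (adjusted p = 0.455).

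Tpd52l1, a vesicle trafficking protein of the D52 family, fell in adult colon (-1.32, -1.54 and -1.57) and was at -0.31 and -0.14 in the fetal pools (difference -1.25 ± 0.12, adjusted p = 0.0109). Nupr1, a chromatin-associated stress response protein, fell at both stages, to -2.09, -2.09 and -2.46 in adult and -1.20 and -0.98 in fetal colon (-1.12 ± 0.16, adjusted p = 0.0319). Best2, the bestrophin channel that carries bicarbonate in colonic goblet cells, fell in adult colon (-0.70, -0.85 and -0.72) and was at 0.05 and 0.50 in the fetal pools (-1.03 ± 0.14, adjusted p = 0.0294). For these 3 genes the adult pools all lay below the fetal pools.

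Several goblet genes gave no call in the stage difference. Creb3l4, a membrane-bound bZIP factor, fell to -1.92, -3.01 and -3.21 in adult and to -2.83 and -2.29 in fetal colon, with a difference of -0.15 ± 0.39 (adjusted p = 0.871). Ccl6, a chemokine, was at -1.08, -1.50 and -1.33 against -1.39 and -1.42, and its difference was 0.11 ± 0.13 (adjusted p = 0.704). Both fell in each stage, and the pools of the stages overlapped. Retnlb, the resistin-like goblet protein, was at -0.18, -1.35 and 0.87 in adult pools and at -2.04 and -1.45 in fetal pools, where its wild type level was 8.96 against 15.34 in adult colon (difference 1.52 ± 0.77, adjusted p = 0.325). Clca1, a metalloprotease of the mucus layer, was at 0.43, -0.37 and 1.21 against -0.17 and 0.39 (0.31 ± 0.47, adjusted p = 0.767). For other transcription factor genes of secretory cells the differences were near 0: Atoh1 0.00 ± 0.16, Gfi1 0.01 ± 0.14 and Foxa3 0.15 ± 0.14. Their limma adjusted p was 0.996, 0.968 and 0.623. Of 31 tested genes of secretory fate and Notch signalling, 0 passed in the stage difference by limma, against 174 of all genes.

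**Figure D3:**
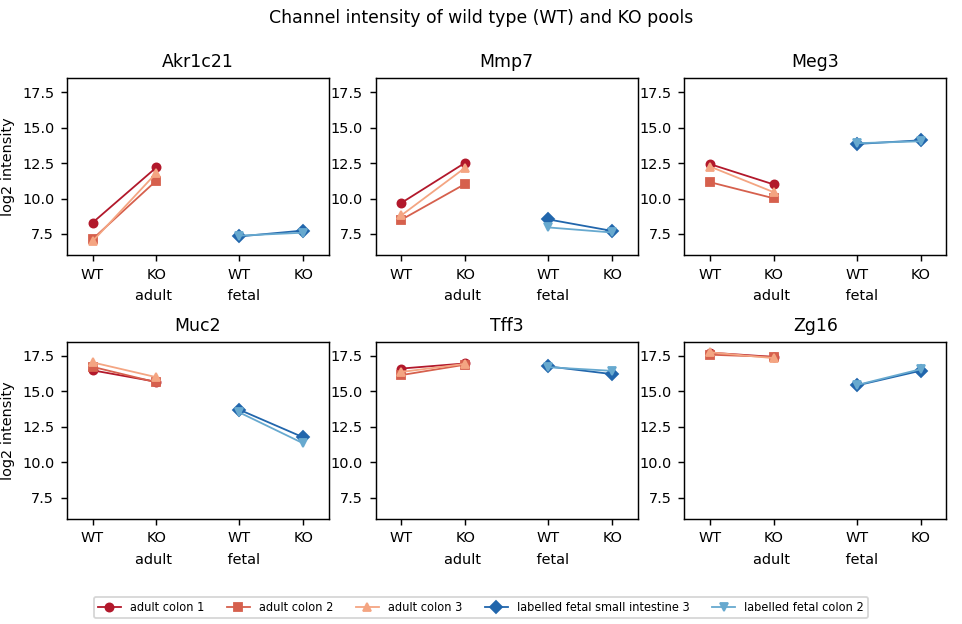
Log2 channel intensity of wild type (WT) and KO pools for Akr1c21, Mmp7, Meg3, Muc2, Tff3 and Zg16, with a line joining the pools of a pair; reds are adult colon 1 to 3 and blues the fetal pools labelled small intestine 3 and colon 2. Akr1c21 and Mmp7 were higher in KO than in WT in the adult pairs while their fetal KO means were 7.67 and 7.66, and wild type Muc2 was lower in the fetal pools (13.61) than in adult colon (16.76).

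Meg3, an imprinted non-coding RNA, had the most negative stage difference of the 174 genes. Its ratio was -1.44, -1.14 and -1.81 in adult and 0.26 and 0.13 in fetal colon, with no overlap and a difference of -1.66 ± 0.17. Its level in wild type pools was 11.95 in adult and 13.88 in fetal colon, and in KO pools 10.48 and 14.08. The other 3 Meg3 probes gave -1.58, -0.93 and -0.67. Dlk1, an imprinted gene of the same chromosomal cluster that encodes a Notch-like membrane protein, was at -0.89, -1.0 and -2.68 in adult and 0.35 and -0.47 in fetal colon (-1.46 ± 0.50, adjusted p = 0.172). Of the other 31 imprinted genes tested, 0 passed in the stage difference (1.02% of all genes did). With Meg3, 7 of 32 fell and 1 rose in adult colon (5.79% and 3.76% of all genes), and in the fetal pools 0 passed (36 of all genes did).

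Most markers of the gut wall had a stage difference of the same sign as Meg3, and none of them passed. Stage differences were below 0 for 24 of 24 fibroblast and collagen genes, 19 of 20 smooth muscle genes and 19 of 21 genes of enteric neurons and glia, against 8993 of all 17092 genes. None of the 3 lists held a gene past the stage threshold in limma (1.02% of all genes did). Of their 24, 20 and 21 genes, 2, 3 and 10 fell in adult colon, against 5.79% of all genes. The median differences of the lists were -0.30, -0.38 and -0.28. The mean log2 intensity of the fibroblast list ran from 10.93 to 11.15 in adult KO, 11.13 to 11.35 in adult wild type, 12.17 to 12.30 in fetal KO and 12.01 to 12.15 in fetal wild type pools, and 0 of its genes were below background in both genotypes of a stage. In whole colon RNA, fewer cells of a type and less RNA per cell cannot be told apart. The part of such markers in the values of Meg3 and of the next genes was not tested.

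Col8a1, a short-chain collagen of vessels and stroma, was at -1.21, -1.24 and -1.31 in adult and 0.30 and -0.27 in fetal colon (-1.27 ± 0.14, adjusted p = 0.0184), and its second probe gave -1.22. Amhr2, the receptor of anti-Müllerian hormone, was at -1.04, -1.01 and -1.19 against 0.05 and -0.02 (-1.09 ± 0.076, adjusted p = 0.00276). Adult KO pools of Amhr2 stood at 7.22 log2 intensity and were well above background on 1 of 6 arrays. The level there is thus read mostly from arrays near background, and processed signals gave a stage difference of -2.84. Wild type Amhr2 stood 1.06 log2 units higher in adult than in fetal colon, and the mean adult ratio was -1.08. Fetal wild type Amhr2 was thus about as dim as adult KO, so a fall in the fetal pools could hardly have been seen. Rab6b, a Golgi GTPase known from neurons, was at -0.93, -0.74 and -0.79 against 0.22 and 0.14 (-1.0 ± 0.13, adjusted p = 0.026), and a dimmer second probe gave -0.37. Of these genes the adult pools all lay below the fetal ones.

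Among 39 genes of colonocyte transport and surface there was 1 call each way (0.398% and 0.62% of all genes). Guca2b, which encodes uroguanylin, the peptide that regulates salt and water secretion, rose in adult colon (0.89, 1.08 and 1.09) and was at -0.03 and 0.17 in the fetal pools (0.95 ± 0.14, adjusted p = 0.0353). Slc20a1, a sodium-phosphate cotransporter, fell in adult colon (-1.02, -1.38 and -0.92) and was at 0.02 and 0.30 in the fetal pools (-1.27 ± 0.20, adjusted p = 0.0401). A second, dim probe of Slc20a1 gave -0.23. Of these genes Slc20a1 was much brighter in adult (14.14) than in fetal wild type colon (10.87). Hoxd13, a position marker of the distal colon, was at -0.55, -1.45 and -0.67 in adult and 0.38 and 0.38 in fetal colon, next to the threshold as given above, while the 16 colon markers together had a median difference of -0.04.

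Genes outside the goblet and Paneth lists made up the rest of the largest positive differences. Gata2, a GATA factor of blood and mast cells, was at 1.03, 1.03 and 1.29 in adult and 0.06 and -0.06 in fetal colon (1.12 ± 0.097, adjusted p = 0.00652), with a second probe at 0.91. Il1rl1, the receptor of interleukin 33, was at 0.74, 1.36 and 1.51 against -0.01 and -0.12 (1.27 ± 0.21, adjusted p = 0.0427), with a second probe at 0.50. Both were dim: wild type Gata2 stood at 7.64 and Il1rl1 at 8.31 in adult colon, and Il1rl1 was above background on 3 of 4 fetal wild type arrays and 1 of 4 fetal KO arrays. Of 19 macrophage and mast cell markers 0 passed in the stage difference (1.02% of all genes did), and 3 rose and 2 fell in adult colon (3.76% and 5.79% of all genes).

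Lgals3, the epithelial galectin-3, was at 0.55, 0.28 and 0.53 in adult and -0.66 and -0.40 in fetal colon (0.99 ± 0.13, adjusted p = 0.0267). Adgrf1, an adhesion G protein-coupled receptor, was at 0.96, 1.26 and 0.94 against 0.09 and 0.04 (0.98 ± 0.10, adjusted p = 0.014). C2cd4b, a nuclear C2-domain protein, was at 0.82, 1.29 and 0.69 against -0.04 and -0.15 (1.02 ± 0.17, adjusted p = 0.0427). All 3 rose in adult colon, and their adult pools lay above both fetal pools.

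Below 0 in the same ranking stood Cckar, Nxpe2 and Shisa3. Cckar, the cholecystokinin A receptor, which the exocrine pancreas also makes, was at -0.77, -0.55 and -1.17 in adult and 0.28 and -0.01 in fetal colon (-0.97 ± 0.17, adjusted p = 0.0498). The adult value nearest to 0 was that of adult colon 2, the pool without the pancreas signal. Among the 12 genes of this ranking below 0, the same held for Meg3, Zg16, Amhr2, Rab6b, Nxpe2 and Shisa3. It did not hold for Slc20a1, Col8a1, Tpd52l1, Nupr1 and Best2. Whether pancreas RNA bears on the values of Cckar or of these genes was not tested. The median ratio of the 24 pancreas genes was -2.27, -0.01 and -2.88 in adult colon 1 to 3. In the fetal pools it was -0.01 and 0.00. Of the 24, 1 (Zg16) passed in the stage difference, against 1.02% of all genes. Nxpe2 was at -0.86, -0.69 and -0.94 against -0.18 and 0.44 (-0.96 ± 0.16, adjusted p = 0.0441), and its wild type level was 12.29 in adult and 8.27 in fetal colon. Shisa3, which dampens Wnt and FGF receptors, was at -0.27, -0.08 and -0.43 against 0.80 and 0.56 (-0.94 ± 0.14, adjusted p = 0.0371). Neither stage alone passed for Shisa3, with adjusted p of 0.107 in adult and 0.0753 in fetal colon.

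**Figure D4:**
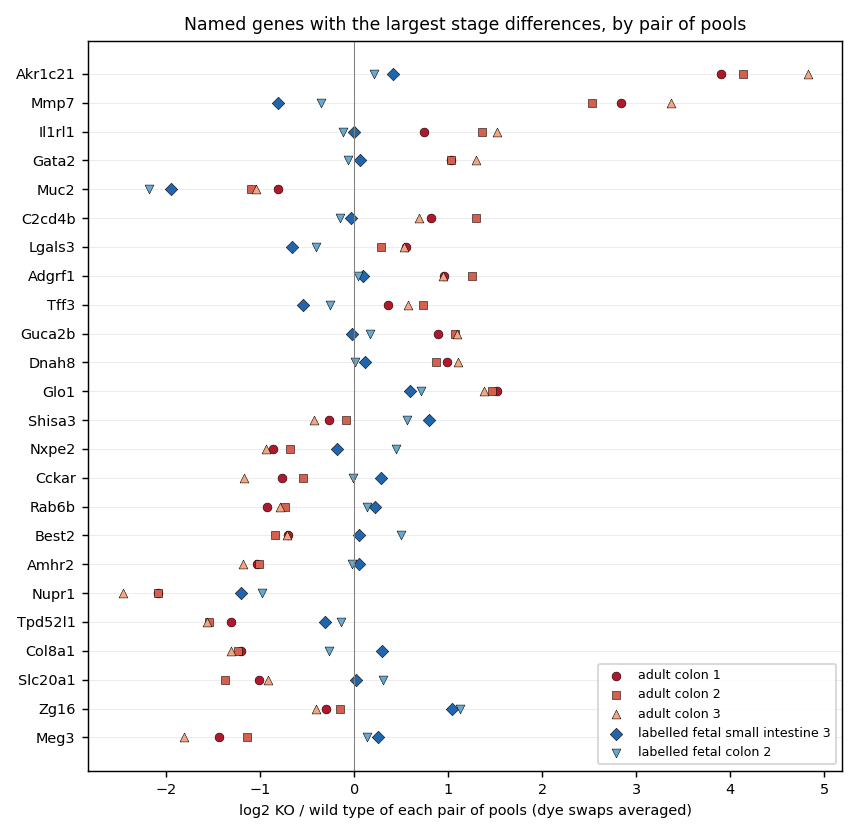
Log2 KO over wild type of the 24 genes with a gene symbol and the largest stage differences past the threshold (12 each way; transcripts known only by a clone or locus number are left out), 1 point per pair of pools with dye swaps averaged; reds are adult colon 1 to 3 and blues the fetal pairs labelled small intestine 3 and colon 2. The adult points lie all to the right of the fetal points for the upper 12 genes and all to the left for the lower 12, as the choice of genes without overlap required, and Akr1c21, Muc2, Adgrf1, Dnah8, Glo1, Tpd52l1 and Nupr1 have all 5 points on 1 side of 0.

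Several of the calls lie near Spdef on chromosome 17. Of 433 tested genes with probes within 10 Mb of the Spdef probe, 5 passed as higher in adult and 3 as lower, against 68 and 106 of all 17092. The 5 are Glo1 (2.88 Mb away), Dnah8 (3.16 Mb), Tff3 (3.41 Mb), Cbs (3.90 Mb) and Tnfrsf12a (4.04 Mb), and the 3 are Kank3 (5.99 Mb), Zfp160 (6.71 Mb) and Atat1 (8.06 Mb). Glo1, the glyoxalase that clears methylglyoxal, was higher in KO at both stages, at 1.51, 1.47 and 1.38 in adult and 0.59 and 0.71 in fetal colon (0.80 ± 0.074, adjusted p = 0.00682), with a second probe at 0.79. Dnah8, an axonemal dynein chain, was at 0.99, 0.87 and 1.11 against 0.11 and 0.00 (0.93 ± 0.086, adjusted p = 0.00682). Cbs, which makes cystathionine from homocysteine, stood at 0.48 in adult and -0.04 in fetal colon (0.52 ± 0.074, adjusted p = 0.0333). Genotype at these neighbouring genes and loss of Spdef cannot be told apart in these pools.

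Ywhaz, which encodes the 14-3-3 zeta adaptor protein, had a stage difference that did not pass the threshold, with wide spread among the fetal pairs. Its ratio was 0.42, 0.37 and 0.22 in adult and -0.40 and -1.13 in fetal colon, with a difference of 1.10 ± 0.31. The groups lay on opposite sides of 0, and the fetal pairs differed from each other by more than the adult pairs did. The second Ywhaz probe gave 0.38 in adult and 0.00 in fetal colon, so the fetal value was seen with the brighter probe and not with the dimmer one. The pair labelled fetal colon 1 stood at -1.40 and adult small intestine at 0.67 and 0.42, outside colon. With the fetal pools as labelled, which takes in that pair, the Ywhaz stage difference was 1.60 and passed the threshold. Over 23 alternative settings it ranged from 0.74 to 1.60. The stage difference of Ywhaz in small intestine was 1.42. The other 6 members of the 14-3-3 family had stage differences from -0.09 to 0.12 with the brightest probe of each. Dimmer probes named Sfn, at other positions than the brightest (0.09), gave 0.59 and 0.65. With the pools grouped by profile, 0 of the 7 passed at either stage or in the stage difference, which 1.02% of all genes passed.

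Among reductases related to Akr1c21, 1 of the other 24, Dhrs9, passed as higher in adult and 0 as lower (0.398% and 0.62% of all genes). Dhrs9, a short-chain dehydrogenase of retinol and steroids, was at 0.43, 0.77 and 0.44 in adult and -0.10 and -0.06 in fetal colon (0.63 ± 0.11, adjusted p = 0.0455). The sister genes Akr1c12, Akr1c14, Akr1c18 and Akr1c19 had differences of 0.22, 0.11, 0.40 and 0.28, none past the threshold. The Akr1c genes are close in sequence, and cross-reading between probes was not tested.

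Among gut hormone and other enteroendocrine genes, 1 of 27 passed as higher in fetal KO pools (0.0234% of all genes did) and 24 of 27 had a ratio above 0 there, against 14 in adult colon. The medians were 0.16 and 0.00. Pyy, the ileal and colonic satiety hormone, was also the 1 that passed in the stage difference (0.62% of all genes passed as lower), at 0.04, 0.27 and 0.18 in adult and 0.79 and 0.81 in fetal colon (-0.64 ± 0.081, adjusted p = 0.026), and it rose in the fetal pools (adjusted p = 0.00203). The second Pyy probe gave -0.43. Cpe, a carboxypeptidase that processes prohormones, was at -0.37, -0.77 and -0.45 against 0.46 and 0.02 and did not pass (-0.77 ± 0.18, adjusted p = 0.0822).

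Cell cycle genes were above 0 in adult KO colon and nearer 0 in fetal colon, with no gene past the stage threshold. In adult colon 38 of 38 had a ratio above 0 and 19 of 38 passed as higher, against 3.76% of all genes, and the list's median was 0.29. In the fetal pools 34 of 38 were above 0, 0 passed in limma (36 of all genes did) and the median was 0.11. The median stage difference was 0.21, which turned to -0.14 with median centring. Plk1, a mitotic kinase, was at 0.55, 0.74 and 0.34 in adult and 0.04 and 0.12 in fetal colon (0.46 ± 0.16, adjusted p = 0.173). Prom1, a membrane protein of crypt progenitors, passed as higher in adult: it was at 0.18, 0.26 and 0.13 against -0.41 and -0.34 (0.57 ± 0.067, adjusted p = 0.0228), so that it rose in adult and fell in fetal colon (adjusted p = 0.0318 and 0.0403), and it was the 1 of 24 crypt stem cell and Wnt genes that passed (1.02% of all genes did).

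Of 38 inflammation and antimicrobial genes 1 passed as higher in adult and 0 as lower (0.398% and 0.62% of all genes). Ptgs2, the inducible cyclooxygenase, rose in adult colon (0.38, 0.53 and 0.52) and was at 0.03 and -0.05 in fetal colon (0.49 ± 0.074, adjusted p = 0.0371), with 0.49 from its second probe. Il1b, the cytokine interleukin 1 beta, was at 0.55, 1.15 and 0.59 against -0.02 and -0.03 and did not pass (0.78 ± 0.17, adjusted p = 0.0677). Both were dim in fetal colon, with wild type levels of 7.21 and 7.17. In the endoplasmic reticulum list 1 of 54 passed as higher (Agr2), against 0.398% of all genes, with a median difference of 0.03. Of 11 B and plasma cell genes 0 passed (1.02% of all genes did). The median ratio of these 11 was 0.29, 0.05 and 0.51 in adult colon 1 to 3.

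**Figure D5:**
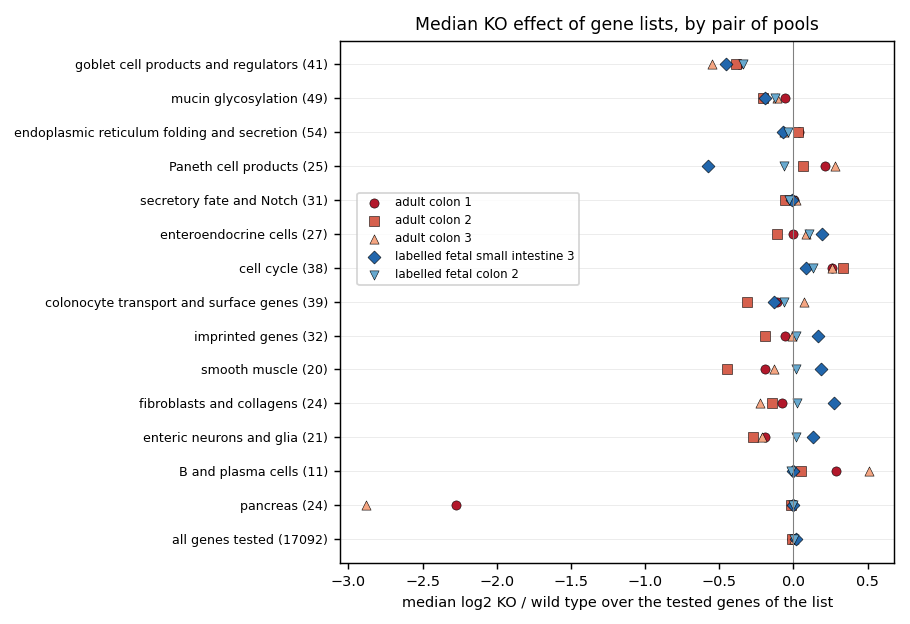
Median log2 KO over wild type of 14 gene lists and of all genes tested, 1 point per pair of pools, with the number of tested genes in brackets. Goblet genes lie left of 0 in all 5 pairs, the Paneth list lies right of 0 in the 3 adult pairs and left of it in the 2 fetal pairs, and the pancreas list is far left in adult colon 1 and 3 (-2.27 and -2.88).

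The stage difference in colon was also set against the same difference in small intestine (adult small intestine 1 and 2 against the fetal pools with small intestine profile). Of the 17092 genes 7 (0.041%) passed in the test of these differences. They include Akr1c21 and Mmp7, whose colon values chose them, so for these genes it is a description and no test. Akr1c21 was at 0.01 and 0.07 in adult small intestine, so that its stage difference there was -0.01 against 3.98 in colon. Mmp7 was at -0.76 and -0.94 in adult small intestine and -0.78 and -0.48 in the fetal pools of that profile, a stage difference of -0.23 against 3.50 in colon. Amhr2 (-0.05 in small intestine, -1.09 in colon, adjusted p = 0.0339) and Zg16 (0.20 against -1.37, adjusted p = 0.0191) differed as well. The limit of dim fetal colon signal given above for Amhr2 holds here too. For Sval1, a secreted protein of the seminal vesicle antigen family, the stage difference was 0.98 in small intestine and -0.52 in colon (adjusted p = 0.0139).

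The other 2 of the 7 differed through small intestine. Krtap19-1 and Prm1, a keratin-associated protein and a sperm protamine, had differences of 0.12 and 0.05 in colon and -1.49 and -1.70 in small intestine (adjusted p = 0.00549 and 0.0187). Muc2, Agr2, Tff3 and Glo1 did not pass in this test (adjusted p = 0.969, 0.697, 0.88 and 0.906). In adult small intestine Tff3 was at -0.16 and -0.21 and Pyy at 0.62 and 0.49. Nothing can be said to belong to colon for the genes that did not pass.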

How the data were processed

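RNA was TRIzol total RNA of dissected whole tissue, and 500 ng was amplified for labelling, per the labels' protocols. Agilent Feature Extraction 9.5.3 (submitters' processing notes) gave each spot's mean and local background intensity in both channels, as deposited. Its log10 ratio of red over green is given per the file headers. The authors' deposited value table is on the log2 scale (KO against wild type), and its normalization is not given in the sources used here.

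From the deposited intensities, log2 ratios were computed with limma 3.58.1 in R 4.3.3 (normexp with offset 50, loess within arrays), and dye swaps were averaged. Probes were kept if well above background, 25990 of 41174, and the brightest per gene was used (17092 genes; 603 on chromosomes X and Y left out). Probe names were updated through RefSeq accessions (23483 probes), symbols (6678) and synonyms (2887). The fit held 4 groups by profile and 9 replicates. The pools labelled fetal small intestine 1 and 2 differed by less than array noise and were counted as 1 sample. The variance between them was 0.274 times that noise. Between adult colon 1 and 3 it was 0.981 times, also slightly below the noise, and these pools were kept apart. It left 5 residual degrees of freedom and 3.05 prior ones. Adjusted p is Benjamini-Hochberg over all genes, with a threshold of 0.05; ± is the standard error. The number of arrays limits the precision. The method called genes changed by known amounts in simulated data, which does not show how reliable the calls from these few pools are.

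The genes and lists were chosen with earlier results of these data known. Genes named are Spdef, Akr1c21, Mmp7, Ywhaz, Meg3, the 12 largest differences each way among genes past the threshold without overlap (transcripts with only a clone, locus or predicted-gene name left out), the leading members of each list, and a fixed panel of goblet and Paneth genes. Alternatives covered the background correction, scaling, probe filter, model, slide, pool labels and each pool left out. The replicate numbers of adult and fetal pools were checked for pairing. Same-numbered pools correlated at 0.00508 and 0.0385, and the others between -0.0736 and 0.0736. With 2 fetal pools, each adult pool's correlations with them are equal and of opposite sign, so the check could not decide. The numbers were not taken as pairs.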

Additional observations from a re-analysis of the deposited data

Results flagged for a closer look

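The following genes are listed because the KO effect differed between adult and fetal colon by a test of the difference, or between the stage differences of colon and small intestine. Values are differences of log2 ratios.

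Higher in adult colon were Akr1c21 (3.98), Mmp7 (3.50), Il1rl1 (1.27), Gata2 (1.12), Muc2 (1.08), C2cd4b (1.02), Lgals3 (0.99), Adgrf1 (0.98), Tff3 (0.96), Guca2b (0.95), Dnah8 (0.93) and Glo1 (0.80). Smaller differences of the same sign belonged to Agr2 (0.73), Dhrs9 (0.63), Galnt3 (0.60), Prom1 (0.57), Galnt12 (0.50) and Ptgs2 (0.49). Akr1c21, Mmp7 and Meg3 were chosen by this difference, so their values here and below are a description and no test.

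Lower in adult colon were Meg3 (-1.66), Zg16 (-1.37), Slc20a1 (-1.27), Col8a1 (-1.27), Tpd52l1 (-1.25), Nupr1 (-1.12), Amhr2 (-1.09), Best2 (-1.03), Rab6b (-1.0), Cckar (-0.97), Nxpe2 (-0.96), Shisa3 (-0.94) and Pyy (-0.64).

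The stage difference of colon minus that of small intestine was 3.99 for Akr1c21, 3.72 for Mmp7, 1.75 for Prm1 and 1.62 for Krtap19-1. It was -1.57 for Zg16, -1.50 for Sval1 and -1.04 for Amhr2.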

How the results depend on the processing

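The number of genes past the threshold in the stage difference (174) depended on the model, the scaling and single pools. It was 35 from processed signals, 22 with median centring, 12 with only the 5 pools compared, 1399 with every array and a dye term, 5 with a trended and robust prior, 107 with fetal pools as labelled and 680 with fetal small intestine 1 and 2 kept apart. Leaving out 1 pool or array gave 4 to 198 (17 without adult colon 1, 66 without adult colon 2, 19 without fetal small intestine 3, 4 without fetal colon 2), and leaving out the slide labelled 5639 gave 1. In the same order of settings, the adult effect (1632) gave 965, 244, 911, 3002 and 945. It gave 610 from the deposited table, 775 without the slide, and 329 to 1808 without 1 pool or array (329 without adult colon 1, 677 without 2, 899 without 3). The fetal effect (36) gave 65, 19, 21, 252 and 1, and it gave 113 without background subtraction, 220 from the deposited table, 71 with fetal small intestine 1 and 2 apart, and 22 (without fetal colon 2) to 45 without 1 pool. Its split of 4 higher and 32 lower turned to 18 and 10 without fetal small intestine 3. The region difference (7) gave 4 with median centring, 64 with every array, 0 with the trended prior (852 at unadjusted p under 0.05), 56 from the deposited table, 17 as labelled, 16 with those pools apart and 1 without the slide. Without 1 pool or array it gave 2 to 9 (2 without adult colon 1, 3 without fetal small intestine 3, 2 without fetal colon 2). Genes whose wild type level differed by stage (5192) numbered 2892 with only the 5 pools, 1454 as labelled, 1476 without the slide and 2715 to 7773 without 1 pool (2715 without fetal small intestine 3, 2864 without fetal colon 2). The wild type level was not run under the alternative signals, scaling, every array or deposited table. The causes were not tested, beyond fewer pools where pools were left out. The alternatives on the slide labelled 5639, the dim array and genes above background in colon were chosen after seeing the data.

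With the replicate number as a block, 12 genes passed in the stage difference, 21 in adult colon, 0 in fetal colon (957 at unadjusted p under 0.05 in limma, 36 without the block) and 1 in the region difference. Whether the numbers pair the pools could not be decided, so it is not known which fit is nearer to the design.

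Signal over background limits what dim genes show: Il1rl1, Il1b and Ptgs2 were above background on 1 to 3 of 4 fetal arrays of a genotype. The fetal side rests on 2 pairs of pools, 1 of them going against its tissue label, and the sexes of the pools differ.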

Other observations

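A few genes past the stage threshold that no list held are given here one by one. They were chosen after their values were seen, and nothing is said of the groups they belong to. Tef, a PAR bZIP transcription factor, was at -0.66, -1.07 and -0.67 in adult and 0.06 and 0.07 in fetal colon (stage difference -0.86 ± 0.14, adjusted p = 0.0419). Hlf, of the same family, differed by -0.64 ± 0.10, and Ciart, a repressor in the circadian clock, by -0.78 ± 0.13. For these genes the adult pools all lay below the fetal pools. The hour of tissue collection is not given in the sources used here, and any part of it in these values was not tested. The chemokine gene Ccl21a differed by -0.82 ± 0.14 and Mmrn1, which encodes multimerin-1, by -0.72 ± 0.098.

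Areg, which encodes the growth factor amphiregulin, was at 0.45, 0.73 and 0.63 in adult and -0.23 and -0.16 in fetal colon (0.80 ± 0.14, adjusted p = 0.0472). Hbegf, another ligand of the epidermal growth factor receptor, differed by 0.54 ± 0.065 (adjusted p = 0.0243). The transcription factor genes Fos and Atf3 differed by 0.51 ± 0.080 and 0.52 ± 0.077. C2cd4a, related to C2cd4b, differed by 0.72 ± 0.12 (adjusted p = 0.0419).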
